A study of Mus musculus with 16 samples.

Results

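The cytochrome P450 genes of the mouse, written Cyp, were taken as a group from a series of RNA-seq libraries of the 4 main cell types of the liver. Members were all genes of the count tables whose symbol reads Cyp, a number, a letter and a number, with 1 further letter allowed (as in Cyp4a12a), together with Cyp51. The 16 pseudogenes ending in -ps were left out. This gave 99 members of 47729 genes, from 17 families, and the Cyp2 family held 48 of them. Members lay on many chromosomes, with 19 on chromosome 4, 18 on chromosome 19 and 15 on chromosome 7.

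Endothelial cells (ECs), hepatic stellate cells (HSCs), Kupffer cells (KCs) and hepatocytes (HEPs) were isolated from unchallenged livers, with 2 libraries for each cell type and label. Mice labelled KO carried Zeb2 with exon 7 between loxP sites and the tamoxifen-inducible Cdh5-CreERT2 driver, which is active in endothelium, on a background with an eGFP Cre reporter. Controls labelled WT were littermates without Cre, so floxed Zeb2 and tamoxifen at 2 mg per day for 5 days were common to both labels. Per the study's methods, 8-week-old males were the default and RNA was taken 2 weeks after tamoxifen. HSCs were sorted by their vitamin A autofluorescence, KCs by F4/80 and ECs by a pan-endothelial antibody, and HEPs were separated from these cells by centrifugation. Each library has a number in its label, but the labels do not say which libraries came from the same animal, and p-values measure the spread between 2 libraries per group.

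P450 enzymes are heme proteins that insert an oxygen atom into their substrates, with electrons passed on by a reductase. In the liver, families 1 to 3 oxidise drugs and other foreign compounds, family 4 oxidises fatty acids, and families 7, 8, 27 and 39 turn cholesterol into bile acids. Hepatocytes around the central vein are known to hold most of the drug-metabolising members, with Cyp2e1 as the usual marker, while Cyp2f2 marks periportal hepatocytes. Nuclear receptors set the level of many members. PPARα acts on Cyp4a10 and Cyp4a14, CAR and PXR on Cyp2b10 and Cyp3a11, and the aryl hydrocarbon receptor on Cyp1a1 and Cyp1a2.

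Reads assigned to genes came to 12872706 to 15690506 per library, so that 3 reads corresponded to 0.191 to 0.233 counts per 1000000 gene reads (CPM). Sums of 10 markers per lineage were highest in the labelled cell type, at 18358 to 25593 CPM for EC markers in ECs, 41238 to 50390 CPM for HSC markers in HSCs and 45474 to 58841 CPM for KC markers in KCs. The sum of 15 hepatocyte markers (albumin, apolipoproteins, fibrinogens and others) was 136705 to 155540 CPM in HEPs. All 15 were also present in every other library, and the sum was 2841 to 33811 CPM in ECs, 754 to 10598 CPM in HSCs and 8108 to 16024 CPM in KCs. Zeb2 itself was at 106 and 106 CPM in WT ECs and at 199 and 130 CPM in ECs labelled KO (log2 fold change 0.62, adjusted p = 0.303 by edgeR). The count covers the whole gene, with or without exon 7, so it does not check the deletion. Its direction was opposite to the label without passing the test. The study reports efficient deletion in ECs from mRNA and reporter measurements, which are not part of these counts. Libraries are called labelled KO throughout because these counts cannot check the deletion.

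Hepatocytes gave the largest share of P450 reads. Members took 2.85% and 3.33% of gene reads in WT HEPs and 2.83% and 3.31% in labelled KO HEPs. In WT HEPs, 63 members reached a mean of 1 CPM and 30 reached 100 CPM. WT ECs also had 63 members at 1 CPM, but 15 at 100 CPM. WT KCs and HSCs had 56 and 54 members at 1 CPM. Across the 4 cell types, 58 members had their highest WT mean in HEPs, 5 in ECs, 4 in HSCs and 3 in KCs. The remaining 29 stayed under 1 CPM in all 4, among them Cyp19a1 and Cyp11b2, the aromatase and aldosterone synthase, and 8 of the 29 had no read in any library.

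Cyp2e1, which oxidises ethanol and acetone, was the highest member per transcript length in WT HEPs at 2537 ± 584 CPM per kb (SD, n = 2). Its level was 4584 and 6366 CPM in the WT HEP libraries and 3426 and 8605 CPM in the labelled KO ones, so that the labelled KO values lay on both sides of the WT values. The periportal Cyp2f2 came next at 1998 ± 286 CPM per kb, with 3637 and 4456 CPM in WT and 4051 and 3100 CPM in labelled KO HEPs. The spread of 2 libraries does not separate Cyp2e1 from Cyp2f2. They were followed by Cyp2c70, which makes the muricholic acids of mouse bile, at 812 ± 170 CPM per kb, and by Cyp3a11, the main drug-oxidising member of family 3, at 773 ± 192 CPM per kb.

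Below them stood Cyp2d10 at 735 ± 92.3 CPM per kb and Cyp2c29 at 617 ± 7.25 CPM per kb. Cyp2d26 and Cyp2d9 were at 553 ± 96.5 and 553 ± 123 CPM per kb. Cyp2c67 and Cyp8b1, the sterol 12α-hydroxylase of the bile acid pathway, were at 508 ± 135 and 434.5 ± 243 CPM per kb. From Cyp2c70 to Cyp8b1, each neighbouring pair in this order lay within its spread, except Cyp2d10 and Cyp2c29, whose means differed by more than either SD. Cyp2j5, an arachidonic acid epoxygenase, and Cyp7b1, an oxysterol hydroxylase, closed the leading 12 at 316 ± 11.5 and 268 ± 128 CPM per kb. Family 2 took 68.8% of all P450 reads in WT HEPs, family 3 took 15.1% and family 4 took 6.97%.

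**Figure D1:**
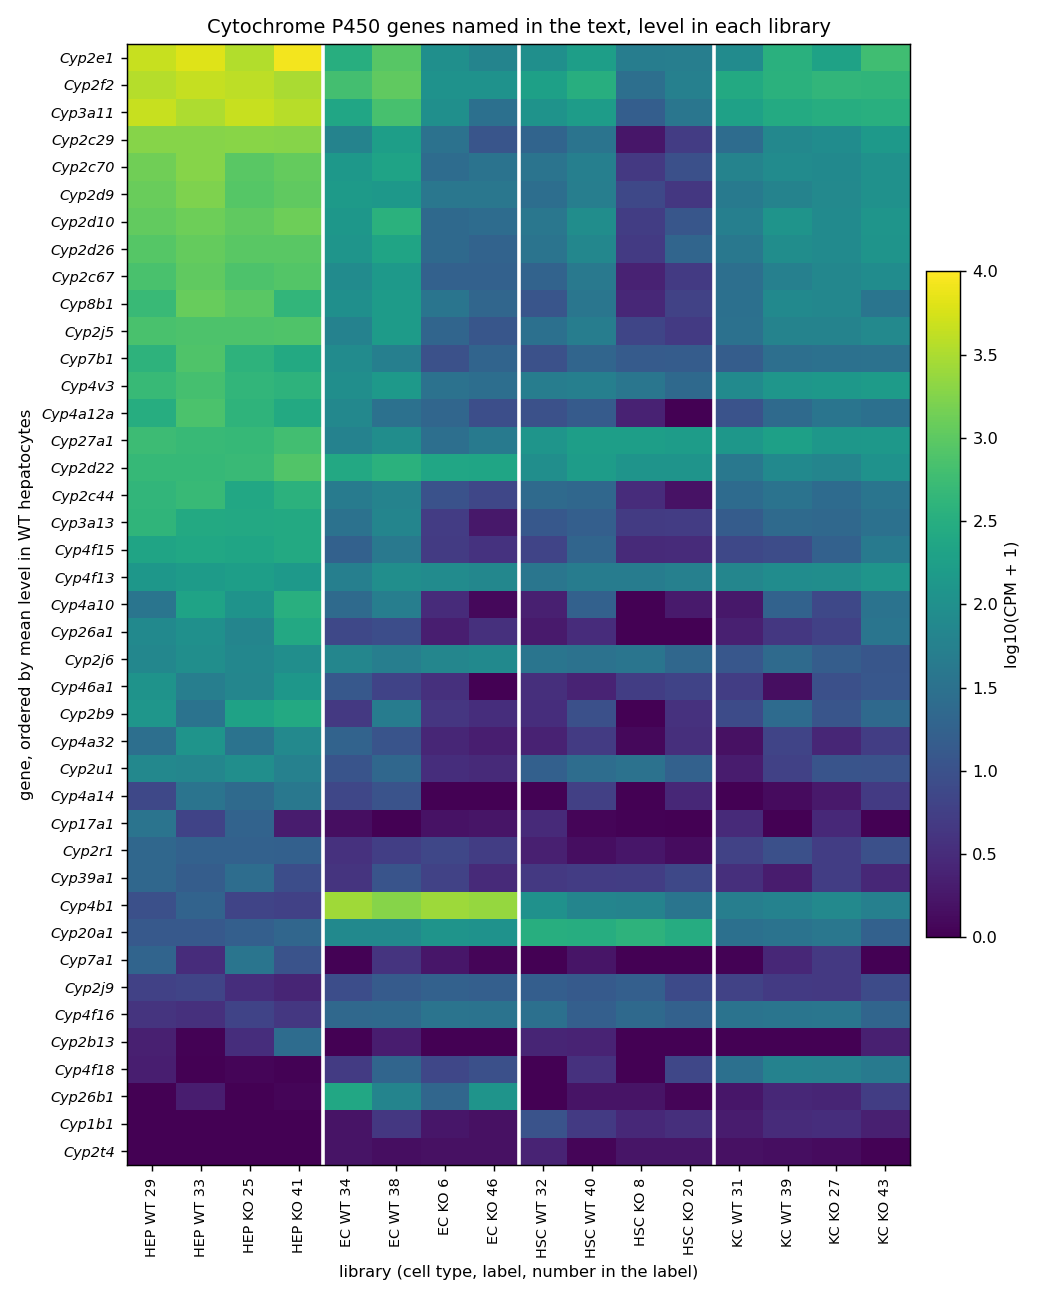
Heat map of log10(CPM + 1) for the P450 genes named in the text (rows, ordered by mean level in WT HEPs) in the 16 libraries (columns, by cell type, label and number). The 4 HEP columns carry the highest values for most genes, while Cyp4b1 stands out in the EC columns and Cyp20a1 in the HSC columns.

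Hepatocyte libraries differed among themselves at the members more than at most genes. Of 50 members with a mean of at least 10 CPM over the 4 HEP libraries, 8 (16.0%) ranged over more than 4-fold between the lowest and the highest library. Among all 5721 genes at that level the share was 2.73%. The median ratio of highest to lowest was 1.75 for members and 1.46 for all genes. Between the WT libraries alone, 6 members (12.0%) differed by more than 4-fold, against 0.594% of all genes.

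Several of these wide-ranging members are known targets of hormonal or nutritional control. Cyp17a1, a steroid 17α-hydroxylase, was at 34.2 and 5.39 CPM in WT HEPs and at 17.6 and 1.01 CPM in labelled KO HEPs, a 33.9-fold range. Cyp7a1, the rate-limiting enzyme of bile acid synthesis, was at 18.4 and 2.25 CPM in WT and at 35.3 and 9.50 CPM in labelled KO HEPs. In both genes each label had a low and a high library. Cyp2b10, the classical CAR target, ranged from 2.80 to 32.4 CPM over the 4 libraries.

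The PPARα targets Cyp4a10 and Cyp4a14 ω-hydroxylate fatty acids. Cyp4a10 was at 34.4 and 208 CPM in WT HEPs and at 114 and 329 CPM in labelled KO HEPs, a 9.58-fold range. Cyp4a14 was at 6.31 and 33.8 CPM in WT and at 23.2 and 38.5 CPM in labelled KO HEPs, a 6.11-fold range. WT library 29 was the lowest of the 4 for both, and labelled KO library 41 the highest. Cyp2b9, Cyp4a32 and Cyp26a1 were the other members past 4-fold. By contrast, Cyp2c29 stayed between 1849 and 1962 CPM.

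**Figure D2:**
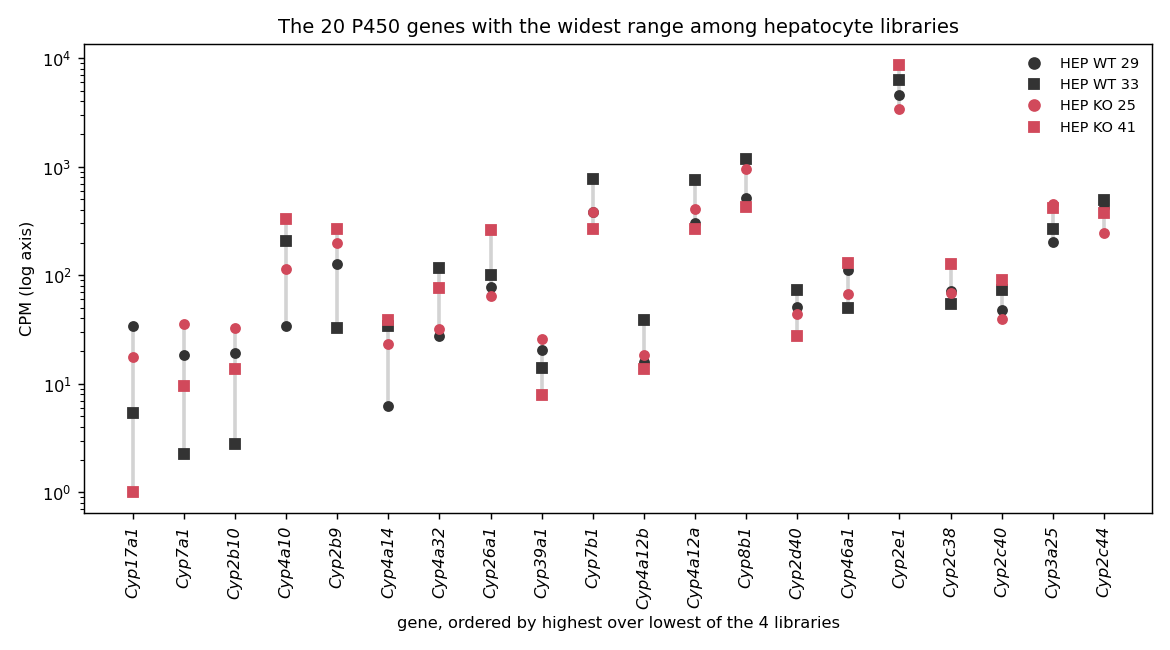
Level in CPM (log axis) of the 20 P450 genes with the widest range among the 4 HEP libraries, with 1 point per library, coloured by label. Points of the same label lie far apart for Cyp17a1, Cyp7a1, Cyp2b10 and Cyp4a10, and the labels interleave in these genes. Some others, such as Cyp2b9 and Cyp3a25, have their labels apart.

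Few members were higher in a non-parenchymal cell type than in hepatocytes. In a fit over all 16 libraries that averaged the labels, 73 members passed the filter on low counts and 26 did not. Of the 73, 7 were higher and 60 lower in ECs than in HEPs (edgeR, adjusted p below 0.05), where 33.2% of all tested genes were higher and 25.5% lower. In HSCs 5 were higher and 61 lower (all genes 34.0% and 24.4%), and in KCs 5 were higher and 61 lower (all genes 29.3% and 26.3%). Composition factors were 0.497 to 0.588 in HEPs and above 1 in all other libraries. Scaling by library totals alone, an alternative added after seeing the data, moved the median difference over all genes by 1.36 in ECs, 1.11 in HSCs and 1.04 in KCs on the log2 scale, and gave 8 higher and 57 lower, 6 and 59, and 7 and 58, respectively.

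Cyp4b1, a fatty acid and furan hydroxylase best known from lung, was the leading P450 transcript of endothelium. It was at 2724 and 1854 CPM in WT ECs and at 2564 and 2302 CPM in ECs labelled KO, against 4.85 to 17.5 CPM in HEPs, 35.4 to 103 CPM in HSCs and 51.2 to 75.1 CPM in KCs. All 4 EC libraries lay far above all others. Its log2 fold change against HEPs was 6.79 ± 0.36 (SE, adjusted p = 5.24e-08, edgeR), and per length it led all members in WT ECs at 1015 ± 273 CPM per kb. It made up 33.4% of P450 reads in WT ECs. In HSCs and KCs it was higher than in HEPs by 1.80 ± 0.29 and 1.79 ± 0.29 on the log2 scale.

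Cyp26b1, which breaks down retinoic acid, was nearly restricted to the EC libraries but varied between them. It was at 249 and 63.5 CPM in WT ECs and at 19.7 and 119 CPM in ECs labelled KO, while the other 12 libraries held 0 to 4.33 CPM. The log2 fold change against HEPs was 7.70 ± 1.19 (adjusted p = 0.000143, edgeR). Its paralog Cyp26a1 had the opposite pattern, with 64.0 to 259 CPM in HEPs and 1.18 to 7.92 CPM in ECs.

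Cyp20a1, a member without a well-established substrate, had the highest mean per length in WT stellate cells, at 139 ± 2.01 CPM per kb. The spread of 2 libraries does not separate it from Cyp2f2 at 127 ± 48.3 CPM per kb. Cyp20a1 was at 321 and 315 CPM in WT HSCs and at 380 and 296 CPM in HSCs labelled KO. ECs held 77.9 to 115 CPM, KCs 16.7 to 37.3 CPM and HEPs 12.1 to 19.6 CPM. The HSC libraries did not overlap with any other cell type, and the ECs stood between them and the rest. Against HEPs the log2 fold change was 3.36 ± 0.25 in HSCs (adjusted p = 2.88e-07) and 1.30 ± 0.23 in ECs (adjusted p = 0.000395, edgeR). It accounted for 17.0% of P450 reads in WT HSCs.

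Cyp4f18, which oxidises leukotriene B4 in myeloid cells, was highest in Kupffer cells. Its level was 28.6 and 59.2 CPM in WT KCs and 55.3 and 43.7 CPM in KCs labelled KO, against 3.98 to 19.0 CPM in ECs, 0 to 6.22 CPM in HSCs and 0 to 1.15 CPM in HEPs. No KC library overlapped with another cell type. The log2 fold change against HEPs was 6.52 ± 1.46 in KCs (adjusted p = 0.00229) and 3.87 ± 1.39 in ECs (adjusted p = 0.0310, edgeR). Its relative Cyp4f16 was at 15.3 to 36.3 CPM in all 12 non-parenchymal libraries and at 2.59 to 5.42 CPM in HEPs. Cyp4f16 was higher than in HEPs in all 3 cell types, by 1.58 ± 0.28 in ECs, 1.44 ± 0.28 in HSCs and 2.07 ± 0.29 in KCs on the log2 scale.

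Cyp1b1, an aryl hydrocarbon receptor target found mainly outside the liver parenchyma, had no read in any HEP library. It was at 9.54 and 3.71 CPM in WT HSCs and at 1.94 and 2.49 CPM in HSCs labelled KO. Bounds were taken in plain CPM, without composition factors, against a floor of 3 reads per library. On that scale Cyp1b1 was at least 22.3-fold higher in HSCs, 6.79-fold higher in ECs and 8.53-fold higher in KCs than in HEPs. Cyp2t4 was also called in all 3 comparisons, but its mean was under 1 CPM in every WT group. Its bounds in plain CPM were 2.52-fold in ECs, 3.85-fold in HSCs and 1.67-fold in KCs. With the composition factors of the test, which were lowest in HEPs, the bounds of both genes would be smaller.

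**Figure D3:**
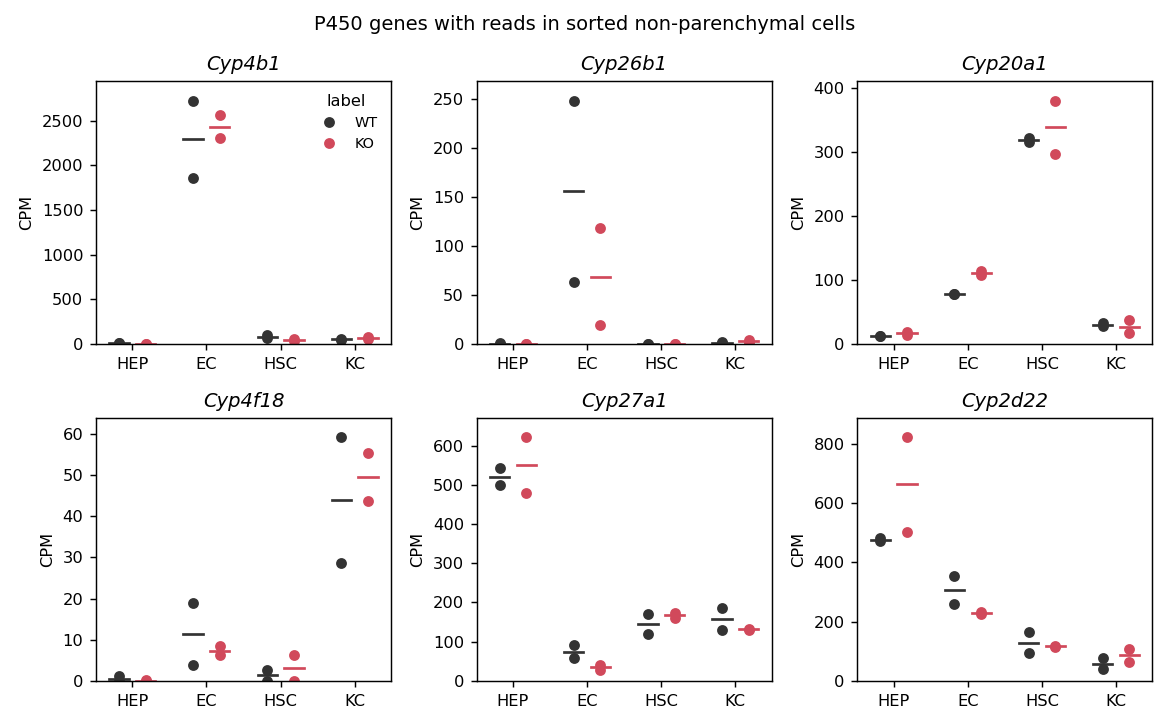
Level in CPM (linear axis from 0, its own scale in each panel) of P450 genes with reads in non-parenchymal cells, by cell type, with 1 point per library coloured by label and a line at the mean of each label. Cyp4b1 is highest in ECs, Cyp20a1 in HSCs and Cyp4f18 in KCs, with no overlap with the other cell types.

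Typical hepatocyte members were nevertheless counted in all sorted populations. Per length, Cyp2f2 and Cyp2e1 came directly after Cyp4b1 in WT ECs, at 420 ± 154 and 285 ± 195 CPM per kb. Cyp2f2 led WT KCs at 155.5 ± 31.3 CPM per kb, ahead of Cyp2e1 at 98.4 ± 84.3 CPM per kb. In WT HSCs, Cyp2f2 followed Cyp20a1 at 127 ± 48.3 CPM per kb. In all of these libraries the hepatocyte markers were present as well, and their part in these levels was not tested. The marker sum, as a percentage of its WT HEP mean, was 11.7% and 24.3% in WT ECs but 2.74% and 2.04% in ECs labelled KO. It was 3.28% and 7.63% in WT HSCs, 0.542% and 1.41% in HSCs labelled KO, 5.84% and 8.50% in WT KCs, and 9.53% and 11.5% in KCs labelled KO.

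Each member was therefore also expressed relative to the 15 hepatocyte markers, by a fit in which their sum replaced the library size. On this scale a gene whose reads keep the proportion found in HEPs has a difference near 0. Cyp2e1 differed from HEPs by -0.74 ± 0.48 in ECs, -0.43 ± 0.48 in HSCs and -0.80 ± 0.48 in KCs on the log2 scale, and Cyp2f2 by 0.39 ± 0.39, 0.37 ± 0.39 and 0.21 ± 0.39. None of these 6 values passed the test (adjusted p between 0.139 and 0.679, edgeR). Members above the marker ratio numbered 17 in ECs, 20 in HSCs and 14 in KCs, where 86.2%, 88.7% and 80.9% of all genes were above it. With most genes called on this scale, the adjustment removed few calls among members. In either direction 21 were called in ECs, 28 in HSCs and 15 in KCs, against 22, 28 and 17 at an unadjusted p below 0.05.

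Members above the ratio included some whose plain level was highest in HEPs. Cyp27a1, the mitochondrial sterol 27-hydroxylase, was at 119 to 173 CPM in HSCs, 130 to 186 CPM in KCs and 479 to 621 CPM in HEPs. Its ratio to the markers was higher than in HEPs by 3.96 ± 0.49 in HSCs and by 1.70 ± 0.45 in KCs on the log2 scale. Cyp2d22 was at 225 to 353 CPM in ECs and 93.6 to 164 CPM in HSCs, and its ratio was higher by 2.98 ± 0.46 and 3.51 ± 0.47. Cyp4f13, Cyp2j6 and Cyp2j9 were above the ratio in ECs and HSCs, with Cyp4f13 at 3.04 ± 0.45 in ECs and 4.03 ± 0.47 in HSCs.

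Members below the marker ratio were 4 in ECs, 8 in HSCs and 1 in KCs, where 0.105%, 0.343% and 0.168% of all genes were below it. Those in ECs were Cyp2c29, Cyp2c38, Cyp2c39 and Cyp2c50, all of subfamily 2c. Cyp2c29 was below it in all 3 cell types, by -1.35 ± 0.45 in ECs, -2.44 ± 0.48 in HSCs and -1.14 ± 0.45 in KCs on the log2 scale. HSCs added Cyp1a2, Cyp2c54, Cyp2c67 and Cyp26a1. The list of pericentral members was divided on this scale. Its members Cyp1a2, Cyp2c29, Cyp2c50 and Cyp2c54 were below the ratio in at least 1 cell type and Cyp27a1 was above it in HSCs and KCs, while Cyp2a5, Cyp2c37, Cyp2e1, Cyp3a11 and Cyp7a1 were called in none.

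**Figure D4:**
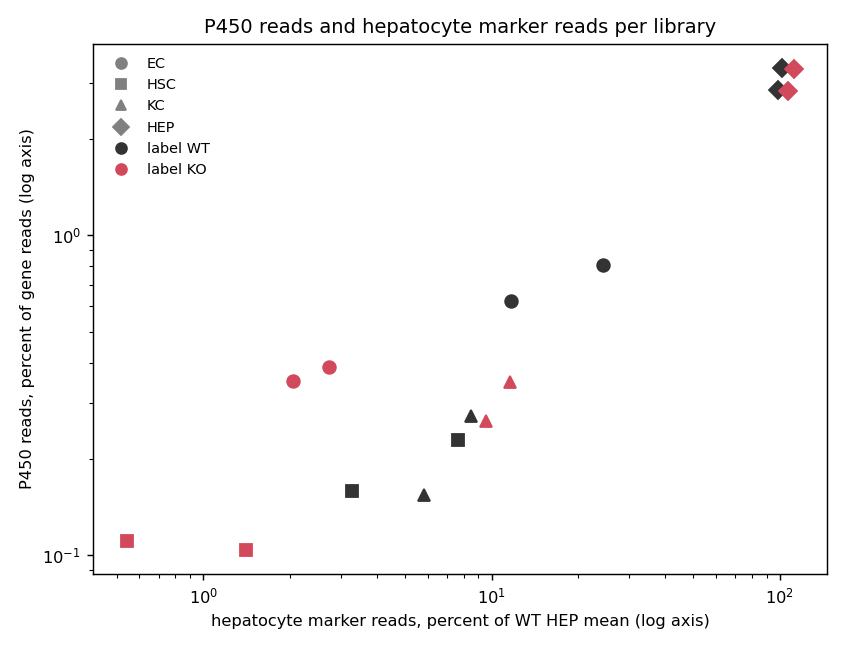
Share of gene reads from the 99 P450 genes in percent (log axis) against the hepatocyte marker sum as percent of its WT HEP mean (log axis), with 1 point per library, shaped by cell type and coloured by label. HEPs sit at the upper right, HSCs labelled KO at the lower left, and the EC libraries lie at 0.352% to 0.806% of reads.

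Promoters of the hepatocyte members held fewer CG dinucleotides than those of members above the hepatocyte marker ratio in other cells. Sequences were taken from RefSeq on GRCm38.p6, with 250 bases before and 50 after the RefSeq start. By symbol they matched 76 of the 99 members. The RefSeq start lay 17680 and 18940 bases from the GENCODE M21 gene start for Cyp2c29 and Cyp2d9 of the first set below. It lay 9685 and 8387 bases away for Cyp1a1 and Cyp11a1 of the second set. The 25 members at 100 CPM or more in WT HEPs and above the marker ratio in no other cell type form the first set, of which 20 had a promoter. They held a median of 2 CG dinucleotides, between 0 and 5. The 23 members above the ratio in at least 1 cell type, of which 19 had a promoter, held a median of 6, between 1 and 28. At least 10 were found in 0 of the first set, in 7 (36.8%) of the second and in 43.5% of all 32851 promoters. Among the 7 were Cyp27a1, Cyp4v3 and Cyp51, whose highest WT mean was in HEPs, at 521, 575 and 139 CPM. Being above the ratio kept them out of the first set, so the contrast in CG count depends in part on this assignment. Over all 76 member promoters, which include those in neither set, the median was 3 and 13.2% held at least 10.

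Motifs were searched by their letters. TATAAA, on the strand of the gene and before the start, was found in 35.0% of the hepatocyte set, 15.8% of the other set, 27.6% of all member promoters and 7.59% of all promoters. CAAAGTCCA, a sequence that HNF4α can bind, was searched on both strands and found in 5 hepatocyte promoters (25.0%), none of the other set and 0.475% of all promoters. Over all members it was found in 11 of 76 (14.5%), so that 6 of the 11 lay in neither set. GTTAAT, part of the HNF1 motif, was found on either strand in 10.0% and 0% of the sets, 11.8% of all member promoters and 7.10% of all promoters. The 5 hepatocyte promoters with CAAAGTCCA were those of Cyp2c67, Cyp2c68, Cyp2c70, Cyp3a11 and Cyp8b1.

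The 250 bases before the start are printed on the strand of the gene for the 4 members with the highest level per length in WT HEPs, for Cyp8b1, and for 4 members with a higher level in ECs, HSCs or KCs than in HEPs. Cyp8b1, the 10th in level, was chosen after its promoter was seen because it holds both motifs, so the share of printed promoters with CAAAGTCCA is above that of the set. Capitals mark CG dinucleotides, TATAAA and CAAAGTCCA. They lie at chr7:140763569-140763818 on the plus strand for Cyp2e1, chr7:27119705-27119954 (plus) for Cyp2f2, chr19:40187287-40187536 (minus) for Cyp2c70, chr5:145879855-145880104 (minus) for Cyp3a11 and chr9:121916306-121916555 (minus) for Cyp8b1. Those of the other set lie at chr4:115647722-115647971 (minus) for Cyp4b1, chr6:84593811-84594060 (minus) for Cyp26b1, chr1:60343050-60343299 (plus) for Cyp20a1 and chr8:72009627-72009876 (minus) for Cyp4f18.
Cyp2e1: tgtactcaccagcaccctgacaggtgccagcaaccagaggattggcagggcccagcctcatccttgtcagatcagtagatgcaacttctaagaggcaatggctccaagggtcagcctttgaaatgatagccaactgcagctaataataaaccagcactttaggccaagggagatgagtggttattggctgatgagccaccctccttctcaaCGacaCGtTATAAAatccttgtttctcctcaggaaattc
Cyp2f2: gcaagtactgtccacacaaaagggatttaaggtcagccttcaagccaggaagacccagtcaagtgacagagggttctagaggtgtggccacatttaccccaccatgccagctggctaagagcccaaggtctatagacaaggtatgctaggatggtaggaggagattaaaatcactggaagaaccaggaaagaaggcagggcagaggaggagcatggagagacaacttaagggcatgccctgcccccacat
Cyp2c70: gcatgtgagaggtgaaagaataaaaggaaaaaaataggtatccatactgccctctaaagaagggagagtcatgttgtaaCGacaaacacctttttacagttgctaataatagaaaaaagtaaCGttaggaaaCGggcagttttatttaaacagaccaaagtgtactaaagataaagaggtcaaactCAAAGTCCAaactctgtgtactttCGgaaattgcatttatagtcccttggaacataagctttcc
Cyp3a11: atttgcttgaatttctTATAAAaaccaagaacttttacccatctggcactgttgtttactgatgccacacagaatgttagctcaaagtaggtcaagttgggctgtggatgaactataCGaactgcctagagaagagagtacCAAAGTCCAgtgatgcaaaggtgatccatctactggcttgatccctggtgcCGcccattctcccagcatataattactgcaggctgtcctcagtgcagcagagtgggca
Cyp8b1: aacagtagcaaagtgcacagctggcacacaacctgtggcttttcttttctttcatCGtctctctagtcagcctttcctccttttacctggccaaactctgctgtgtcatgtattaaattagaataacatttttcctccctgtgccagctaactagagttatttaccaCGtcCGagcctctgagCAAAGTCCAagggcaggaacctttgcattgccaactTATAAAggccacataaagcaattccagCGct
Cyp4b1: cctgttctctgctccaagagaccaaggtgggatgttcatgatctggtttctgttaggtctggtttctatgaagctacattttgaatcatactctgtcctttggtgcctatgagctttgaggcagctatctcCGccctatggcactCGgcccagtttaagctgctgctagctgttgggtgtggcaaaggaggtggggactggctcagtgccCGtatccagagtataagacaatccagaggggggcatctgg
Cyp26b1: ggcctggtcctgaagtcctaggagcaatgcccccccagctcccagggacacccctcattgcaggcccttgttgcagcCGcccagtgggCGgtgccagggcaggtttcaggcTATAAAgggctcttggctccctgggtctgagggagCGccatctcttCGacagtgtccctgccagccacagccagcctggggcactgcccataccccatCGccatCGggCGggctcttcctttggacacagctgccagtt
Cyp20a1: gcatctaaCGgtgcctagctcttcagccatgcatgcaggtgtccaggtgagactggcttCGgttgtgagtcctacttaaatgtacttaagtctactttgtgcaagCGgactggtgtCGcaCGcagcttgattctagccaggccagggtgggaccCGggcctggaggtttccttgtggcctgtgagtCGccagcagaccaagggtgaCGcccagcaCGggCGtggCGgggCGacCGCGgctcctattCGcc
Cyp4f18: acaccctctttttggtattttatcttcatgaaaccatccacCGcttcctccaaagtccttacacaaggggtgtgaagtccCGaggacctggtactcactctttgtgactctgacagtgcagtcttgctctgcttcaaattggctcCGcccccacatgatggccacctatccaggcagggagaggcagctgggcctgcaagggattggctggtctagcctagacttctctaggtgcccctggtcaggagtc
Among these, TATAAA began 31 bases before the start in both Cyp2e1 and Cyp8b1. It began 234 bases before the start in Cyp3a11 and 139 in Cyp26b1 of the other set. CAAAGTCCA began 64, 109 and 67 bases before the start in Cyp2c70, Cyp3a11 and Cyp8b1. Cyp2f2 had no CG in the stretch shown and Cyp20a1 had 15. The promoter letters are a description and no binding was measured.

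Between the labels, P450 reads in ECs were lower with the KO label. Members took 0.622% and 0.806% of gene reads in WT ECs and 0.388% and 0.352% in ECs labelled KO. Of 63 members tested, 54 had a lower and 9 a higher mean difference, and 17 passed the test, all of them lower. That was 27.0% of the members tested, where 2.08% of all 14631 tested genes were called and 1.97% were called lower (edgeR). The median log2 fold change was -2.54 for members and -0.01 for all genes. All 15 hepatocyte markers were called lower as well, between -3.14 and -2.72 with a median of -2.90. In bulk samples fewer cells of a type and less RNA per cell cannot be told apart, and the part of hepatocyte RNA in these differences was not tested beyond the marker ratio given below.

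Periportal Cyp2f2 was at 629 and 1072 CPM in WT ECs and at 110 and 110 CPM in ECs labelled KO, with a log2 fold change of -2.95 ± 0.32 (adjusted p = 0.0245). Pericentral Cyp2e1 was at 317 and 912 CPM in WT and 96.7 and 62.7 CPM in labelled KO ECs, a change of -2.95 ± 0.51 (adjusted p = 0.0483). The groups did not overlap for either gene. Groups did not overlap, with labelled KO below WT, for 47 of the 63 members, and for 24.5% of all genes. Other called members were Cyp2d10 (-3.37 ± 0.49), Cyp2d26 (-3.10 ± 0.33), Cyp2c67 (-2.83 ± 0.31), Cyp2c44 (-2.78 ± 0.32), Cyp3a13 (-4.29 ± 0.73) and Cyp4f15 (-3.02 ± 0.52).

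The strongest difference was that of Cyp4a14, with 6.00 and 9.63 CPM in WT ECs and no read in either library labelled KO. Against the floor of 3 reads it was at least 37.4-fold lower (adjusted p = 0.0316, edgeR). Of the 4 listed PPARα targets, all tested, 4 were lower and 2 were called, Cyp4a14 and Cyp4a32 (-3.28 ± 0.54, adjusted p = 0.0409). Cyp4a10 was at 23.4 and 49.6 CPM in WT and at 2.16 and 0.209 CPM in labelled KO ECs, with adjusted p = 0.0506. Of 8 bile acid synthesis members 8 were lower and 3 were called, Cyp2a12, Cyp2c70 and Cyp8b1. Pericentral members were lower in 9 of 9 tested, with Cyp2e1 alone called. Female-biased members were lower in 5 of 5 with none called, and male-biased ones in 4 of 4 with Cyp2d9 called.

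Members with their own high level in ECs did not pass the test. Cyp4b1 had a log2 fold change of 0.08 ± 0.31 (adjusted p = 0.938), Cyp20a1 of 0.51 ± 0.20 (adjusted p = 0.299) and Cyp4f16 of 0.58 ± 0.25 (adjusted p = 0.353). For Cyp26b1 it was -1.15 ± 0.92 (adjusted p = 0.629), with labelled KO values on both sides of the lower WT value. Cyp2d22 was at 259 and 353 CPM in WT and at 232 and 225 CPM in labelled KO ECs (-0.42 ± 0.23, adjusted p = 0.475).

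With the hepatocyte markers in place of the library size, Cyp2e1 and Cyp2f2 differed between the labels in ECs by 0.03 ± 0.79 and -0.06 ± 0.82 on the log2 scale. On this ratio 2 members were lower, Cyp4a14 and Cyp4a10 (-2.15 ± 0.80, adjusted p = 0.0102), where 0.232% of all genes were lower. In HEPs, reads of the 4 PPARα targets ranged from 5.10 to 29.6 per 10000 marker reads between libraries, and from 5.10 to 26.3 within the WT label. Higher were 13 members, among them Cyp4b1 at 2.74 ± 0.94 and Cyp20a1 at 3.26 ± 0.84, where 81.8% of all genes were higher. With most genes called on this scale, the adjustment removed few calls. In all 15 members were called, and 16 had an unadjusted p below 0.05 (edgeR). In the comparison by library size, not by hepatocyte markers, EC markers did not pass the test in ECs (0 of 10, median -0.16). In that same comparison 9 of 9 HSC markers tested were lower with 1 called (median -1.54). There 10 of 10 KC markers were higher with 0 called (median 0.84).

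The EC calls depended on single libraries. Without WT library 34 or 38 the counts were 26 and 18, and without labelled KO library 6 or 46 they were 2 and 0. When 1 library is left out, the lone sample is assumed to vary like the pair of the other label.

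**Figure D5:**
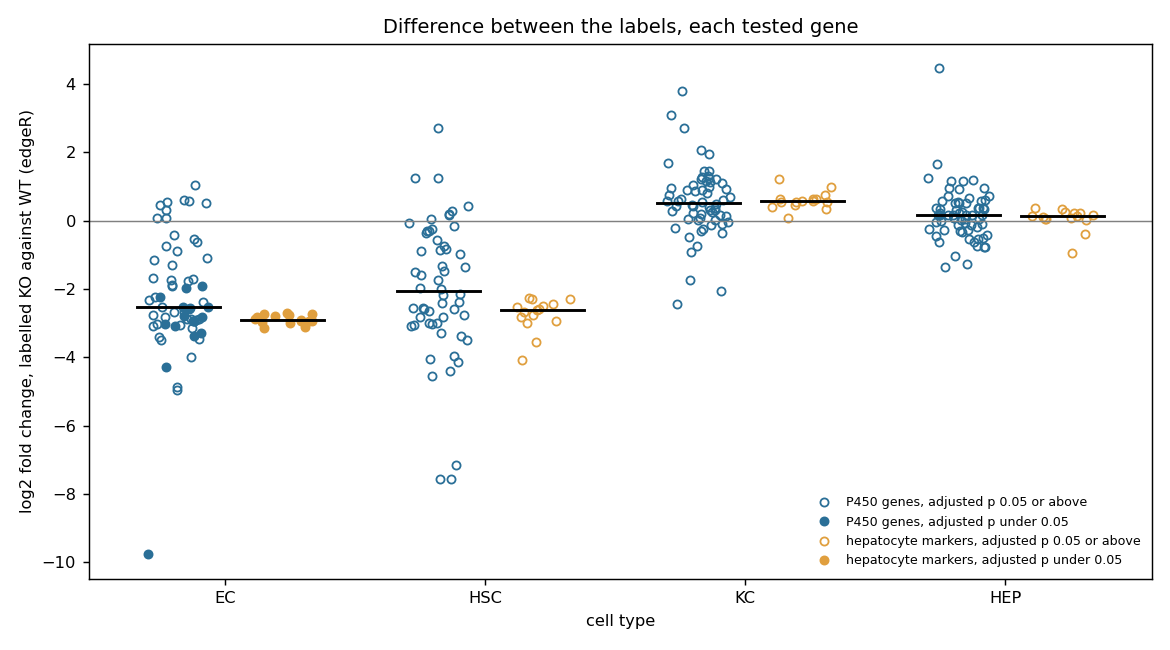
Log2 fold change of libraries labelled KO against WT in each cell type, with 1 point per tested P450 gene beside the 15 hepatocyte markers, filled where adjusted p was below 0.05. In ECs and HSCs most members and all 15 markers lie below 0, in KCs most lie above it, and in HEPs members lie on both sides.

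HSCs showed the same direction without passing the test. Members took 0.159% and 0.229% of reads in WT HSCs and 0.110% and 0.104% in HSCs labelled KO. Of 56 members tested 48 were lower, and 0 were called by edgeR at an adjusted p below 0.05, as were 0.0% of all genes. At an unadjusted p below 0.05 there were 28, of which 27 were lower, against 8.75% of all genes (7.0% lower). DESeq2 called 17 members, and its share of all genes was not recorded. The median log2 fold change was -2.07 for members and -2.61 for the hepatocyte markers, of which 15 of 15 were lower with 0 called. Cyp2c44 was at 23.5 and 20.6 CPM in WT and at 2.21 and 0.553 CPM in labelled KO HSCs (-4.04 ± 0.67, adjusted p = 0.297, edgeR). Cyp27a1 (0.19 ± 0.24), Cyp20a1 (0.06 ± 0.21) and Cyp4f13 (0.28 ± 0.24) had values near 0. Cyp26a1, Cyp2b13 and Cyp11a1 had no read in HSCs labelled KO and low levels in WT, which gave bounds of at least 7.56-, 7.41- and 5.55-fold lower.

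In KCs the values leaned the other way. Members took 0.154% and 0.272% of reads in WT KCs and 0.263% and 0.349% in KCs labelled KO. Of 62 members tested 49 were higher, and 0 were called by edgeR or by DESeq2 (0.0% of all genes by edgeR). At an unadjusted p below 0.05 there were 5, all higher, against 5.09% of all genes (3.35% higher). These were Cyp4f15 (2.06 ± 0.57), Cyp26a1 (3.09 ± 1.01), Cyp3a25 (1.44 ± 0.49), Cyp2a12 (1.10 ± 0.42) and Cyp2c67 (0.89 ± 0.36). The median was 0.51 for members and 0.56 for the hepatocyte markers. Cyp2e1 was at 83.6 and 341 CPM in WT and at 197 and 597 CPM in labelled KO KCs, which overlap. Cyp4f18 differed by 0.15 ± 0.38 on the log2 scale.

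Hepatocytes themselves gave no member past the test. Of 66 members tested 41 were higher and 25 lower, with a median log2 fold change of 0.16, and 0 were called by edgeR, as were 0.0% of all genes. At an unadjusted p below 0.05 there were 7 members (all genes 7.11%). DESeq2 called 1, Cyp3a25, and its share of all genes was not recorded. Cyp3a25 was at 204 and 265 CPM in WT HEPs and at 453 and 416 CPM in labelled KO HEPs, without overlap (0.94 ± 0.23, adjusted p = 0.700, edgeR). Cyp2e1 differed by 0.22 ± 0.46, Cyp2f2 by -0.13 ± 0.20, Cyp3a11 by 0.16 ± 0.19 and Cyp4a14 by 0.67 ± 0.75. Groups did not overlap for 14 members above and 7 below WT, where 19.9% and 20.9% of all genes did so.

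Members with known sex bias had opposite leanings in HEPs, none of them called. All 4 male-biased members were lower, with a median of -0.68, and 6 of 7 tested female-biased members were higher, with a median of 0.22. Cyp7b1, a male-biased member, was at 384 and 776 CPM in WT and at 387 and 269 CPM in labelled KO HEPs. Cyp2b9, a female-biased member, was at 126 and 32.6 CPM in WT and at 199 and 269 CPM in labelled KO HEPs (1.66 ± 0.59, adjusted p = 0.700), and Cyp2b13 was at 1.27 and 0.0682 CPM and at 2.32 and 25.3 CPM. Only Cyp2b9 and Cyp2b13 among these examples had all labelled KO values above the WT values. Pericentral members were higher in 10 of 10, with a median of 0.29 and 0 called. Their sum was 13068 and 13340 CPM in WT HEPs and 12004 and 16992 CPM in labelled KO HEPs, so that library 25 lay below both WT libraries and library 41 above them. Per 10000 marker reads the sum was 956 and 945 in WT and 813 and 1092 in labelled KO HEPs. Without library 41 the log2 fold change of Cyp2e1 was -0.68, and without WT library 29 it was -0.043. Bile acid synthesis members were split, 5 higher and 3 lower.

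Whether the label difference itself differed between cell types was tested by interaction terms in the fit over all 16 libraries. It differed for 15 members in ECs against KCs and for 8 in HSCs against KCs, where 2.07% and 0.593% of all genes were called (edgeR). Cyp2f2, for instance, had an interaction of -3.33 for ECs against KCs and of -3.05 for HSCs against KCs on the log2 scale. For ECs against HSCs, ECs against HEPs, HSCs against HEPs and KCs against HEPs, 0 members were called, with 0.0349%, 0.0697%, 0.0755% and 0.0116% of all genes, while 8, 39, 31 and 4 members had an unadjusted p below 0.05 (4.85%, 9.12%, 7.16% and 8.18% of all genes).

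Partner genes of the P450 enzymes were counted in all cell types, and their lists differed in where they were highest. The electron donors, such as Por, the P450 reductase, and cytochrome b5 (Cyb5a), summed to 4283 to 4815 CPM in HEPs, 1593 to 1954 CPM in ECs, 901 to 1069 CPM in HSCs and 994 to 1340 CPM in KCs. The sum does not describe every donor, since Fdxr, the ferredoxin reductase, was at 16.1 to 19.5 CPM in HEPs and 11.3 to 20.5 CPM in ECs, and Fdx1l at 19.3 to 24.7 CPM in HEPs and 15.2 to 24.1 CPM in KCs. Heme synthesis genes summed to 915 to 1475 CPM in HEPs and to 255 to 669 CPM in the other cell types. Heme breakdown genes were highest in KCs, at 2698 to 3850 CPM, against 195 to 393 CPM in HEPs and 302 to 602 CPM in ECs and HSCs. In ECs 3 of the 8 electron donors tested were higher and 5 lower with the KO label, with 0 called and a median of -0.10. Heme synthesis genes had 2 higher and 6 lower with 0 called, and the 4 heme breakdown genes were higher with 0 called. Of 14 regulators of P450 genes 12 were lower in ECs with 1 called, where 2.08% of all genes were called, and the median was -1.62. The one called was Nr0b2, the small heterodimer partner SHP (-3.37 ± 0.37, adjusted p = 0.0245, edgeR). Hnf4a, on the same list and itself a hepatocyte factor, was at 13.9 and 21.98 CPM in WT ECs and at 4.18 and 1.18 CPM in labelled KO ECs. The 15 hepatocyte markers fell in the same libraries with a median of -2.90, and their part in the regulator values was not tested. Tbxas1, the thromboxane synthase and itself a P450 enzyme under another symbol, had a WT mean of 417.5 CPM in KCs, and Ptgis, the prostacyclin synthase, one of 35.2 CPM.

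Some members share sequence with close relatives, so their counts are less certain. Of all 50-base words of the transcripts of a member, a median of 93.3% occurred in no other gene. For 47 members the share was at least 95%, and for 5 it was under 50%, namely Cyp3a41a, Cyp3a41b, Cyp2c40, Cyp2c69 and Cyp2c67. Of these, Cyp2c67 (47.2%) and Cyp2c40 carry values of more than 10 CPM in HEPs, and reads of Cyp2c67 and its relatives could not be divided with certainty.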

How the data were processed

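RNA was sequenced from ECs, HSCs, KCs and HEPs of WT and labelled KO mice, with 2 libraries per group and 16 in all. The deposited files hold raw counts of reads per gene, not normalized. Per the labels, the authors trimmed reads with Trimmomatic 0.32, aligned them with HISAT2 2.1.0 to GRCm38 and counted them with HTSeq 0.9.1. The annotation release and strand setting are not given in the sources used here, so reads of overlapping genes cannot always be assigned. The labels name a stranded mRNA kit, whereas the design text names another protocol. The 5 summary lines per file were left out, and among them reads without a feature came to 2.82% to 29.7% of gene reads. The members and lists were chosen with earlier results of these data known.

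CPM were computed over gene rows, and lengths were unions of exons in GENCODE M21. Differences were tested over all genes with the quasi-likelihood F test of edgeR 4.0.16 in R 4.3.3 after filterByExpr and TMM scaling, with Benjamini-Hochberg adjustment and a threshold of 0.05. Labels were compared within each cell type, and cell types and interactions in a fit over all 16 libraries. Errors of log2 fold changes are standard errors and those of levels are SDs. A further fit replaced library size by the summed counts of 15 hepatocyte markers. The tests were tried on simulated data. Alternatives were DESeq2 1.42.0, other scalings and filters, and leaving out each library. Named genes were the highest members per length in each cell type, those called, and up to 4 per list. Genes named for their range among HEP libraries, for a marker ratio below 0, at an unadjusted p, and as partner genes or regulators were chosen after their values were seen. Intervals from counts cover counting error only.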

Additional observations from a re-analysis of the deposited data

Results flagged for a closer look

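The difference between the labels itself differed between cell types for 15 members in ECs against KCs, of 73 tested, and for 8 in HSCs against KCs (edgeR interaction, adjusted p below 0.05), where 2.07% and 0.593% of all genes were called. All 23 values were negative, so the labelled KO level relative to WT was lower in ECs or HSCs than in KCs. For ECs against KCs the interaction on the log2 scale was -5.07 for Cyp4f15, -4.75 for Cyp3a13, -4.53 for Cyp2u1, -4.00 for Cyp3a25 and -3.74 for Cyp2c67. It was -3.69 for Cyp2a12, -3.66 for Cyp2d10, -3.46 for Cyp2j5, -3.37 for Cyp2c68 and -3.33 for Cyp2f2. Smaller ones were -2.87 for Cyp2c70, -2.82 for Cyp2c44, -2.70 for Cyp2d9, -2.45 for Cyp4v3 and -2.33 for Cyp51, the lanosterol demethylase of cholesterol synthesis. For HSCs against KCs it was -4.66 for Cyp4f15, -4.43 for Cyp2c67, -4.29 for Cyp3a25, -4.08 for Cyp2c44, -3.78 for Cyp2d9, -3.62 for Cyp2j5, -3.16 for Cyp2c70 and -3.05 for Cyp2f2. The median log2 fold change of the hepatocyte markers was -2.90 in ECs, -2.61 in HSCs and 0.56 in KCs, and their part in these differences was not tested. The interaction of ECs against HSCs called 0 members by edgeR (8 at an unadjusted p below 0.05, 1 by DESeq2), that of ECs against HEPs 0 (39 and 23), of HSCs against HEPs 0 (31 and 14) and of KCs against HEPs 0 (4 unadjusted). At that unadjusted threshold 4.85%, 9.12%, 7.16% and 8.18% of all genes passed, in the same order. For the DESeq2 calls no share of all genes was recorded.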

How the results depend on the processing

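No paired analysis was possible because no number in the labels occurs in more than 1 library. Of the values recomputed under an alternative, 611 were labelled the same, and 56 counts, medians or shares moved. Among fold changes of single genes, 24 lost and 14 gained their call and 8 turned direction, and the cause was not tested. Such a fold change was the same if it kept its direction and side of the threshold. A count was the same if it stayed near the main count, and a median or share if it moved by less than the SD between libraries. Members called between the labels in ECs numbered 17, against 34 with DESeq2, 39 without a filter on low counts and 0 to 26 with 1 library left out. In HSCs 0 became 17 with DESeq2, 19 without the filter and 10 in a fit over all 16 libraries. Under these alternatives the share of all genes called was not recorded in any cell type. The member counts therefore cannot be read against that of all genes. In KCs 0 became 2 without the filter. In HEPs 0 became 1 with DESeq2, 6 without the filter and 0 to 2 with 1 library left out (2 without labelled KO library 25). In the fit over all 16 libraries Cyp4a14, Cyp4a32 and Cyp2e1 lost their call in ECs (adjusted p = 0.148, 0.253 and 0.0749, edgeR). Relative to the hepatocyte markers, 2 members were lower in ECs, and 4 with a wider set of 815 hepatocyte-enriched genes as markers. Leaving out 1 library gave 0 to 3 lower and 1 to 19 higher there (2 higher without labelled KO library 6 and 1 without 46), and 0 to 2 lower and 0 to 1 higher in KCs. With WT libraries alone, 3 members were higher in KCs than in HEPs.

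Interactions called by DESeq2 numbered 1 for ECs against HSCs, 31 for ECs against KCs, 23 for ECs against HEPs, 25 for HSCs against KCs and 14 for HSCs against HEPs. The share of all genes that DESeq2 called in these contrasts was not recorded, so the counts cannot be read against it. Leaving out 1 library gave 0 to 19 for ECs against KCs, with 0 without WT EC library 38, labelled KO EC library 46 or WT KC library 31. It gave 0 to 11 for HSCs against KCs, with 0 without WT KC library 31 or labelled KO KC library 43, 0 to 4 for ECs against HEPs and 0 to 5 for HSCs against HEPs.

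Log2 fold changes between the labels that were not called and changed direction with 1 library left out ranged from -0.045 to 0.44 for Cyp27a1 and from -8.19 to 3.67 for Cyp4a14 in HSCs, and from -0.85 to 0.0018 for Cyp4f16 and from -0.14 to 2.105 for Cyp2e1 in KCs. In HEPs they ranged from -4.11 to 0.75 for Cyp17a1, from -0.68 to 0.77 for Cyp2e1 and from -0.10 to 2.42 for Cyp4a14. With 2 libraries per group, differences smaller than the spread within a label could not be detected, and levels near 3 reads carry little information.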

Other observations

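The reads of the 4 PPARα targets Cyp4a10, Cyp4a14, Cyp4a31 and Cyp4a32 were also set against those of the 15 hepatocyte markers in each library, a comparison added after seeing the data. Per 10000 marker reads, HEP library 29 held 5.10, KC library 31 held 1.65 and HSC library 32 held 6.60. HEP library 33 and EC library 34 held 26.3 and 30.1. EC library 38, KC library 39 and HSC library 40 held 21.0, 20.2 and 24.6. All of these 8 carried the WT label. Among the libraries labelled KO, HEP library 41 and KC library 43 held 29.6 and 25.9, HEP library 25 and KC library 27 held 11.8 and 7.02, and EC library 46 held 4.89. EC library 6 held 10.6, and HSC libraries 8 and 20 held 2.75 and 28.0, where library 8 counted 3 target reads in all. The labels do not say that neighbouring numbers belong to the same liver.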
